A study of Mus musculus with 4 samples.

Results

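The genes described here encode splicing factors, heterogeneous nuclear ribonucleoproteins (hnRNPs) and proteins of the small nuclear ribonucleoproteins (snRNPs). Membership was set by symbol, as the genes named Srsf, Sf3a, Sf3b, Prpf or Lsm followed by a number, or beginning with Hnrnp, Snrp or U2af. Of the 11598 genes in the table, 77 carried such a symbol. The set was chosen with earlier results of these data known. By family these were 19 *Hnrnp*, 13 *Prpf*, 12 *Lsm*, 11 *Snrp*, 10 *Srsf*, 9 *Sf3a* or *Sf3b* and 3 *U2af* genes. The samples were ribosome-protected fragments (RPFs) from leptotene and zygotene spermatocytes, the cells of early meiotic prophase, sorted by FACS from testes of mice at 12 dpp. The genotypes compared were control and *Eef1g*-cKO, with 2 libraries each. In *Eef1g*-cKO mice, a floxed *Eef1g* allele made on a C57BL/6J background lost exons 2 to 7 through *Stra8*-GFPCre, which is active in male germ cells from the spermatogonial stage on. The other libraries are called control, and their labels give the genotype as wild type, without saying whether those mice carried the floxed allele or the Cre. EEF1G is a subunit of the complex that reloads the elongation factor eEF1A with GTP. The labels do not say whether libraries of a genotype came from separate mice, so p-values measure the spread between libraries, which may be technical.

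Splicing removes introns in the spliceosome, which is built from snRNPs. The U1 snRNP reads the 5′ splice site, U2AF reads the polypyrimidine tract and the AG at the 3′ splice site, and the U2 snRNP, with its SF3a and SF3b complexes, covers the branch point. The U4/U6.U5 tri-snRNP then joins and is rearranged into the active spliceosome. Most spliceosomal snRNAs carry a ring of Sm proteins, and U6 carries a related ring of Lsm proteins. SR proteins and hnRNPs bind exons and introns and bias which sites are used, often in opposite directions, and spermatocytes are known for extensive alternative splicing.

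The values are FPKM as the authors computed them, RPF reads per kilobase of gene and per 1000000 reads counted on genes, and changes are given on the log2(FPKM + 1) scale as *Eef1g*-cKO minus control. The 2 control libraries held 2479504 and 1384282 reads counted on genes, and the 2 *Eef1g*-cKO libraries held 223906 and 407979, so control was 6.11-fold deeper on average. The median member had 291 and 179 reads in control but 26 and 46 in *Eef1g*-cKO. *Eef1g* itself had 107 and 58 reads in control against 0 and 4 in *Eef1g*-cKO (limma, adjusted p = 0.0731). The 10 leptotene and zygotene markers examined were all present, and their summed FPKM was 1420 to 1779 in control and 3538 to 3967 in *Eef1g*-cKO, with 8 of 10 higher in both *Eef1g*-cKO libraries. The summed FPKM of 9 spermatogonial markers was 1487 to 1757 in control and 228 to 247 in *Eef1g*-cKO, with 7 of 9 lower in both. Of 9 Sertoli cell markers, 7 were in the table and summed to 559 and 136 FPKM in control against 134 and 85.5 in *Eef1g*-cKO, with 5 of 7 lower in both and *Gata4* without a read in *Eef1g*-cKO. By staining, the authors found no significant difference between genotypes in the share of SYCP3- and γH2AX-positive cells after sorting. The part that the marker differences have in the results below was not tested. RPF levels depend on both the amount of an mRNA and the ribosomes on it. In bulk RPF samples such as these, fewer cells of a type, less mRNA per cell and fewer ribosomes per mRNA cannot be told apart.

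A property of these genes bears on how their RPFs can be counted. Many splicing factor genes have processed pseudogenes, copies of their mRNA inserted elsewhere in the genome, and the RPFs here were size-selected to 26 to 34 nt. Each coding sequence was therefore cut into all of its 28-base windows, and each window was looked for on both strands of the GRCm38.p6 chromosomes. For a window across an exon junction, its own spliced place was counted besides any match in the chromosomes. Such a match can lie at the same gene, where the bases past the junction equal those of the intron. The coding sequences of 3 decreased or nearly decreased genes are shown. These genes were among those furthest below control, and at least 91.2% of their windows lay at 2 or more places. They do not stand for all decreased genes, since 5 of the members later called decreased had under 50% of such windows. The sequences run 5′ to 3′ on the coding strand, and capitals mark bases that lie in at least 1 window found at a single place. A 28-base RPF in lower case alone therefore has at least 1 other exact match, which across an exon junction can lie at the same gene. *Snrpg* (chr6:86371540-86378902), encoding the SmG protein of the Sm ring, is shown whole, and *Snrpd2* (chr7:19149445-19152734), encoding SmD2, and *Srsf3* (chr17:29032660-29043372), encoding an SR protein, are shown for their first 300 bases. Coordinates are those of the gene in RefSeq, build GRCm38.p6, and coding sequences are from GENCODE M21.
Snrpg: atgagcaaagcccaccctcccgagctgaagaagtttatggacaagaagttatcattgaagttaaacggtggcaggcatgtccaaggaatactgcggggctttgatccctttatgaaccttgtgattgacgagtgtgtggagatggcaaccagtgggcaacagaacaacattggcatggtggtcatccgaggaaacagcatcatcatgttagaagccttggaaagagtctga
Snrpd2: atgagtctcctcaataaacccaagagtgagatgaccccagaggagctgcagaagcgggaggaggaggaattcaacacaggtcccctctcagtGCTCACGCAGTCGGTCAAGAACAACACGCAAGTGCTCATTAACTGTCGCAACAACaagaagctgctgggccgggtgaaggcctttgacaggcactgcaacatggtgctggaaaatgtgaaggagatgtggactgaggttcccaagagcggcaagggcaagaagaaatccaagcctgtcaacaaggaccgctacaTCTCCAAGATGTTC
Srsf3: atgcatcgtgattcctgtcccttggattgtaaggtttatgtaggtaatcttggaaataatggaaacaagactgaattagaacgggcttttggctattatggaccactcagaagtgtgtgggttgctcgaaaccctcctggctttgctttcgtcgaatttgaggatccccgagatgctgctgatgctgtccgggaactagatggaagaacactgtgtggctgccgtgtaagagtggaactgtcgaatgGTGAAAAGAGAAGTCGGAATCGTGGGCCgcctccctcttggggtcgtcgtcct

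No base of the *Snrpg* coding sequence was in capitals, 69 of the 300 bases shown of *Snrpd2* were, and 28 of the 300 shown of *Srsf3* were. Over the whole coding sequence, 100% of *Snrpg* windows, 91.2% of *Snrpd2* windows and 94.9% of *Srsf3* windows lay at 2 or more places. How the authors treated reads with several matches is not given in the sources used here, so for such genes reads may have been lost, or gained from copies.

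Across the 77 genes, all of which passed the filter of a mean of at least 1 FPKM, 2 rose and 7 fell in *Eef1g*-cKO (limma, adjusted p under 0.05 and an absolute log2 change above 1). *Srsf6* and *Hnrnph3* rose, and *Snrpg*, *Snrpd2*, *Hnrnpd*, *Hnrnpdl*, *Prpf6*, *Sf3b3* and *Srsf7* fell. The same rule called 2.87% of all 10475 tested genes increased and 4.97% decreased, against 2.60% and 9.09% of the members. With unadjusted p, 2 members (2.60%) were called increased and 10 (13.0%) decreased, against 7.32% and 16.3% of all genes, so the share of decreased members was above the background by one rule and below it by the other. For 15 members both *Eef1g*-cKO values exceeded both control values (19.5%, against 24.6% of all genes), for 39 both were lower (50.6%, against 37.7%), and the genotypes overlapped for 23. The log2 change was negative for 55 members (71.4%, against 59.1% of all genes), and its median was -0.42, against -0.23 over all genes. edgeR on the reads recovered from the table tested 73 members and called 3 of them (4.11%) increased and 8 decreased by adjusted p, where it called 8.75% and 11.2% of the 8056 genes it tested. It added *Hnrnpll* to the increases and *Srsf3* and *Hnrnpa1* to the decreases, and its filter left out *Snrpg*. Neither count model that did test *Snrpg* called it, with adjusted p = 0.129 in edgeR without a filter and unadjusted p = 0.101 in DESeq2, which gave no adjusted p.

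These counts depended on the scaling, and the counts over all genes moved too. The members' median change also moved when single libraries were left out. Only sizes are given for these fits, since 1 genotype then had 1 library. Setting each library's median to the same value shifted the all-gene median by 0.21, and 4 members (5.19%) were then increased and 4 decreased (limma, adjusted p), against 4.97% and 3.66% of all genes. With the trend of change on the share of codons ending in G or C removed, the split was 0 and 12 (0% and 15.6%). The shares over all genes were 3.02% and 5.42%. By unadjusted p the split was 1 and 16 (1.30% and 20.8%, against 6.76% and 16.5% of all genes). Without control replicate 1 the median log2 change of the members was -0.54, against -0.23 over all genes. Without control replicate 2 it was -0.23, against -0.20. Without *Eef1g*-cKO replicate 1 it was -0.31, against -0.22, and without *Eef1g*-cKO replicate 2 it was -0.26, against -0.18.

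**Figure D1:**
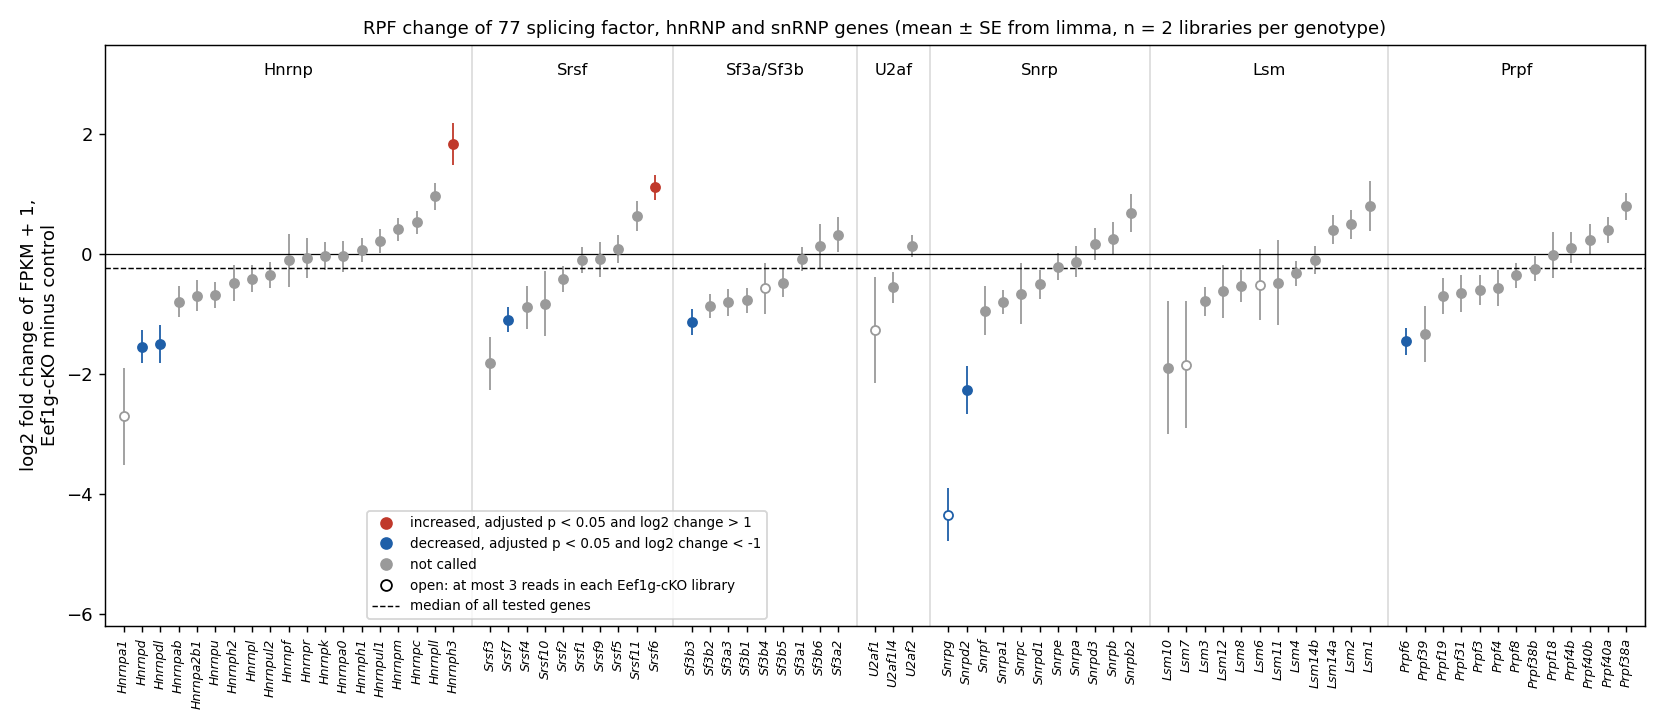
Log2 fold change of FPKM + 1, Eef1g-cKO minus control, of the 77 genes by family, as point ± standard error from limma (n = 2 libraries per genotype), with called genes in red and blue and the median of all tested genes, -0.23, as a dashed line. Points spread from -4.35 (Snrpg, without a read in Eef1g-cKO, so that its position depends on the pseudocount) to 1.84 (Hnrnph3), and 55 of 77 lie below 0; open points had at most 3 reads in each Eef1g-cKO library.

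SR proteins bind exonic enhancers through RNA recognition motifs and contact other splicing factors through a tail rich in arginine and serine. Of the 10 *Srsf* genes, 1 rose and 1 fell. Both *Eef1g*-cKO libraries were above control for 2 (20%, against 24.6% of all genes) and below for 5 (50%, against 37.7%). The median log2 change was -0.26, against -0.23 over all genes. *Srsf6* (chr2:162931508-162937121) and *Srsf7* (chr17:80200080-80207369) moved in opposite directions, and their tails are shown side by side because both encode the same kind of repeat. These are the 30 codons of each coding sequence with the most arginine and serine codons, with arginine codons in capitals.
Srsf6: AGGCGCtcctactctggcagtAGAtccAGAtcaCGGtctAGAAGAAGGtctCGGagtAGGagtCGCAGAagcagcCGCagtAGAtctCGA
Srsf7: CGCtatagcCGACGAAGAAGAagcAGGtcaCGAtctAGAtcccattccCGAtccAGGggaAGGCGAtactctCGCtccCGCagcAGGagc

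Both stretches held 15 arginine codons, with 13 serine codons in *Srsf6* and 11 in *Srsf7*. *Srsf6* had 138 and 164 FPKM in control against 350 and 308 in *Eef1g*-cKO, a 2.18-fold higher mean (151 ± 18.5 against 329 ± 29.6, SD, n = 2). The genotypes did not overlap, and the log2 change of 1.12 ± 0.21 (SE) passed the test (limma, adjusted p = 0.0389). *Srsf7*, which regulates exon inclusion and mRNA export, had 146 and 163 FPKM in control against 76.4 and 67.8 in *Eef1g*-cKO. Its mean was 2.14-fold lower, and its log2 change of -1.09 ± 0.20 passed the test (limma, adjusted p = 0.0389).

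*Srsf3*, the gene whose sequence is shown above, had 308 and 116 reads in control against 4 and 16 in *Eef1g*-cKO. In FPKM these were 40.8 and 27.6 against 5.87 and 12.9, with no overlap. Its log2 change of -1.82 ± 0.44 passed by unadjusted p but not by adjusted p with limma (0.0587), and passed with edgeR (adjusted p = 0.00512). *Srsf2*, which binds exonic enhancers, had the highest control level of the family per length, with 320 and 410 FPKM in control against 268 and 274 in *Eef1g*-cKO. These ranges did not overlap, but the log2 change of -0.42 did not pass (limma, adjusted p = 0.246). *Srsf1*, *Srsf5* and *Srsf9*, with log2 changes from -0.09 to 0.09, had overlapping genotypes. Summed over the family, reads per 1000000 were 2938 and 3402 in control against 3555 and 3226 in *Eef1g*-cKO, ranges that overlapped.

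The hnRNPs of the A/B and D groups bind RNA through recognition motifs and act in splicing, export and mRNA decay. Of these 6 genes, 2 fell, none rose, and 5 were lower in both *Eef1g*-cKO libraries, as were 37.7% of all genes. Their median log2 change was -1.15, against -0.23 over all genes. Their summed reads per 1000000 were 4813 and 6660 in control against 3171 and 3358 in *Eef1g*-cKO. *Hnrnpd*, encoding the AU-rich element binding protein AUF1, had 67.6 and 105 FPKM in control against 28.2 and 28.4 in *Eef1g*-cKO. The *Eef1g*-cKO libraries were close together and below both controls, a 3.05-fold lower mean (log2 change -1.54 ± 0.28, limma, adjusted p = 0.0379). *Hnrnpdl*, its paralog, had 100.3 and 101 FPKM in control against 47.1 and 25.8 in *Eef1g*-cKO, a 2.76-fold lower mean (log2 change -1.50 ± 0.32, limma, adjusted p = 0.0485).

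*Hnrnpa2b1*, encoding a protein that binds UAG-containing RNA, had the highest control level per length of all 77 genes, 1128 and 1561 FPKM, and 815 and 830 FPKM in *Eef1g*-cKO. It was lower in both *Eef1g*-cKO libraries, by 0.69 ± 0.26 on the log2 scale, and did not pass (limma, adjusted p = 0.146). *Hnrnpab* had 470 and 661 FPKM in control against 288 and 358 in *Eef1g*-cKO, a log2 change of -0.79 that did not pass (limma, adjusted p = 0.106). *Hnrnpa1*, encoding a widely studied splicing silencer, had 63 and 49 reads in control against 2 and 0 in *Eef1g*-cKO. It did not pass with limma (adjusted p = 0.0910) and passed with edgeR (adjusted p = 0.0171). Of its windows, 90.0% lay at 2 or more places, and a single window was found at up to 14 places. *Hnrnpa0*, with 55.1 and 75.8 FPKM in control against 56.7 and 70.5 in *Eef1g*-cKO, was the member of this group whose genotypes overlapped.

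**Figure D2:**
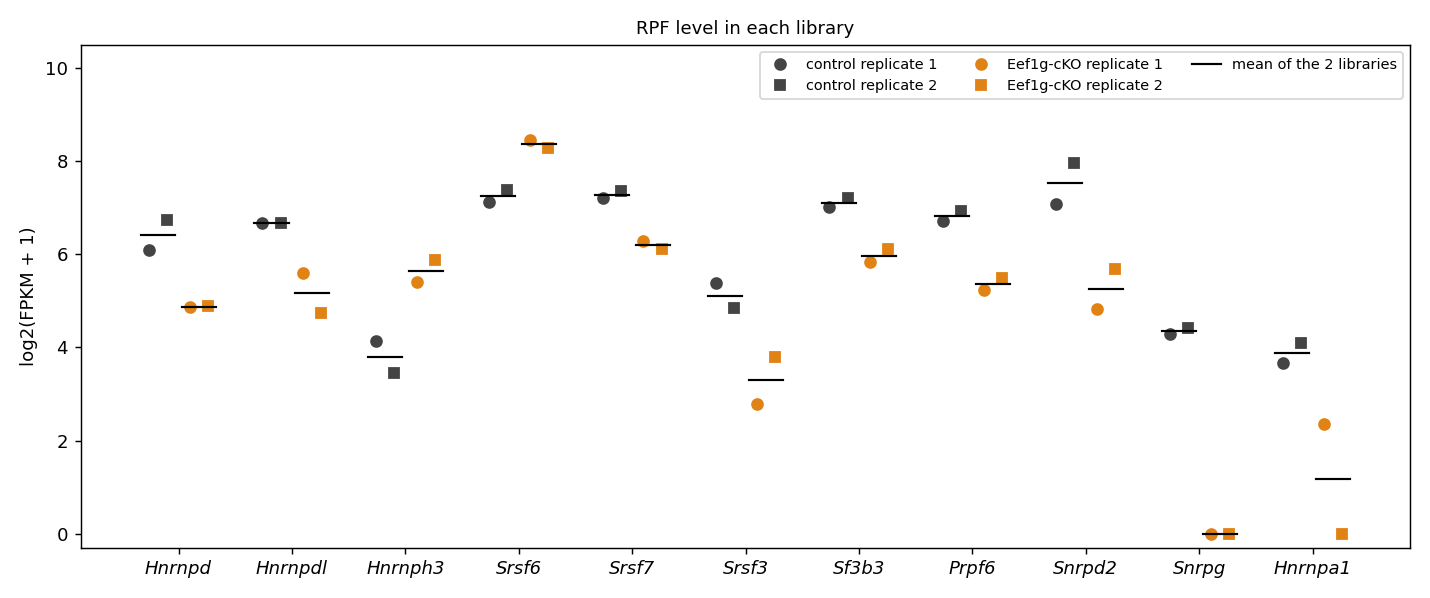
Log2(FPKM + 1) in each of the 4 libraries (circles replicate 1, squares replicate 2, lines the mean of the 2 libraries) for the 9 called genes and for Srsf3 and Hnrnpa1. Control (grey) and Eef1g-cKO (orange) do not overlap for any of the 11 genes, with Eef1g-cKO higher for Hnrnph3 and Srsf6 and lower for the others; Snrpg is at 0 in both Eef1g-cKO libraries.

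The hnRNP F/H proteins bind runs of G. *Hnrnph3* had 16.6 and 10.0 FPKM in control against 41.2 and 57.7 in *Eef1g*-cKO, from 89, 30, 20 and 51 reads. Both *Eef1g*-cKO libraries were higher, and the mean was 3.72-fold higher (log2 change 1.84 ± 0.34, limma, adjusted p = 0.0394). No other gene of the group passed. *Hnrnph1*, the gene of this group with the highest control level per length, had 365 and 367 FPKM in control against 413 and 361 in *Eef1g*-cKO, which overlapped. *Hnrnph2* and *Hnrnpf* had log2 changes of -0.48 and -0.10, with *Hnrnpf* overlapping between genotypes.

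The other 9 *Hnrnp* genes held no call by limma, adjusted or unadjusted. Of these, 4 were higher and 3 lower in both *Eef1g*-cKO libraries, as were 24.6% and 37.7% of all genes. Their median log2 change was -0.03. *Hnrnpu*, encoding a nuclear matrix protein, had 479 and 491 FPKM in control against 271 and 337 in *Eef1g*-cKO (log2 change -0.68 ± 0.21), which did not pass by adjusted p with limma. *Hnrnpll*, encoding a regulator of exon choice first described in lymphocytes, had 37.2 and 45.7 FPKM in control against 83.5 and 79.6 in *Eef1g*-cKO. Its log2 change of 0.97 ± 0.22 was just under the threshold of 1 with limma (adjusted p = 0.0551) and above it with edgeR (1.06, adjusted p = 0.00297). *Hnrnpc*, which binds U-tracts, had 149 and 169 FPKM in control against 223 and 237 in *Eef1g*-cKO, and *Hnrnpm* had 247 and 281 against 358 and 346. Neither passed with limma (adjusted p = 0.134 and 0.216), and *Hnrnpk* and *Hnrnpr* had overlapping genotypes. Of the members named here, those that are neither called nor the highest or furthest moved of their family nor at 3 or fewer reads in both *Eef1g*-cKO libraries were chosen after their values were seen.

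The 7 Sm proteins form the ring on the U1, U2, U4 and U5 snRNAs. Of their genes 2 fell, none rose, 5 were lower in both *Eef1g*-cKO libraries (as were 37.7% of all genes) and 2 overlapped. *Snrpg* had 18 and 11 reads in control (18.5 and 20.2 FPKM) and no read in either *Eef1g*-cKO library. It was called decreased by limma (adjusted p = 0.0216) but by neither count model that tested it. The mean control level of 19.3 FPKM was below the 26.4 FPKM that 3 reads, the upper limit a count of 0 allows, would be worth on this gene in *Eef1g*-cKO, so no fold can be given. *Snrpd2* had 163 and 167 reads in control against 3 and 10 in *Eef1g*-cKO. In FPKM these were 135 and 247 against 27.5 and 50.2, a 4.92-fold lower mean (log2 change -2.27 ± 0.41, limma, adjusted p = 0.0379). The other Sm genes did not pass. *Snrpd3* had the highest control level of the family per length, 524 and 603 FPKM, and 776 and 515 in *Eef1g*-cKO, and *Snrpb* had 321 and 401 against 530 and 350, so that both overlapped between genotypes. *Snrpd1*, *Snrpe* and *Snrpf* were lower in both *Eef1g*-cKO libraries, with log2 changes of -0.50, -0.21 and -0.94 that did not pass. The ring's genes together had 969.5 and 1211 reads per 1000000 in control against 1268 and 870 in *Eef1g*-cKO, and the genotypes overlapped.

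The U1- and U2-specific snRNP genes encode proteins of single snRNPs. *Snrpa1*, encoding U2 A′, had 90.7 and 102 FPKM in control against 57.2 and 52.9 in *Eef1g*-cKO (log2 change -0.80, limma, adjusted p = 0.0680). *Snrpb2*, encoding its partner U2 B″, had 47.2 and 30.0 FPKM in control against 50.8 and 73.7 in *Eef1g*-cKO (0.69, adjusted p = 0.210 with limma). The U1 genes *Snrpa* and *Snrpc* overlapped between genotypes.

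SF3b holds the branch point adenosine in the U2 snRNP. Of its 6 genes, 5 were lower in both *Eef1g*-cKO libraries, as were 37.7% of all genes. *Sf3b3*, encoding the large scaffold subunit, had 128 and 146 FPKM in control against 56.1 and 67.8 in *Eef1g*-cKO, from 1362, 870, 54 and 119 reads. Its mean was 2.21-fold lower (log2 change -1.13 ± 0.22, limma, adjusted p = 0.0403). *Sf3b1*, the subunit that contacts the branch helix, had 108 and 114 FPKM in control against 59.9 and 70.1 in *Eef1g*-cKO, and *Sf3b2* had 160 and 184 against 88.4 and 99.3. Their log2 changes of -0.77 and -0.87 were under the threshold in size and did not pass by limma's adjusted p (0.0730 and 0.0568). *Sf3b4* had 42 and 20 reads in control and 3 in each *Eef1g*-cKO library, and *Sf3b6* overlapped between genotypes. The 6 genes together had 1890 and 2140 reads per 1000000 in control against 1032 and 1235 in *Eef1g*-cKO, without overlap. In SF3a, *Sf3a3* had the highest control level of the SF3 genes per length, 275 and 309 FPKM, and 192 and 144 in *Eef1g*-cKO (log2 change -0.80, limma, adjusted p = 0.0800), while *Sf3a1* and *Sf3a2* overlapped between genotypes.

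U2AF recognises the 3′ splice site as a pair of subunits. *U2af2*, the large subunit, had 194 and 209.6 FPKM in control against 215 and 229 in *Eef1g*-cKO, a log2 change of 0.14 ± 0.19 that did not pass (limma, adjusted p = 0.652). *U2af1*, the small subunit, had 13 and 6 reads in control against 0 and 2 in *Eef1g*-cKO, with 94.2% of its windows at 2 or more places. *U2af1l4*, a paralog of the small subunit, had 81.2 and 102 FPKM in control against 51.7 and 73.8 in *Eef1g*-cKO and did not pass (log2 change -0.55, limma, adjusted p = 0.218).

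All 5 *Prpf* genes of the U4/U6.U5 tri-snRNP were lower in both *Eef1g*-cKO libraries, and 1 of them fell. *Prpf6*, which bridges U5 and U4/U6, had 104 and 120 FPKM in control against 36.5 and 44.1 in *Eef1g*-cKO, from 787, 507, 25 and 55 reads. The 2 genotypes were well apart, with a 2.77-fold lower mean (log2 change -1.45 ± 0.22, limma, adjusted p = 0.0320). *Prpf8*, the protein at the catalytic core, had 149 and 174 FPKM in control against 119 and 133 in *Eef1g*-cKO, and *Prpf3*, *Prpf4* and *Prpf31* had log2 changes of -0.60, -0.56 and -0.65. None of these 4 passed (limma). Together the 5 genes had 1750 and 2049 reads per 1000000 in control against 1206 and 1380 in *Eef1g*-cKO, without overlap.

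Of the 8 other *Prpf* genes, none passed by limma's adjusted p. In both *Eef1g*-cKO libraries 3 were higher and 3 lower, as were 24.6% and 37.7% of all genes. *Prpf38a*, needed for activation of the spliceosome, had 151 and 172 FPKM in control against 323 and 247 in *Eef1g*-cKO (log2 change 0.81 ± 0.23, limma, adjusted p = 0.0785), and was called when libraries were centred on their medians (1.02). *Prpf39*, a U1-associated protein, had 103 and 53 reads in control against 2 and 8 in *Eef1g*-cKO and was called by unadjusted p (log2 change -1.32, limma, adjusted p = 0.125). *Prpf19*, the ubiquitin ligase of the active spliceosome, had 33.5 and 47.0 FPKM in control against 20.5 and 28.3 in *Eef1g*-cKO (-0.70, limma, adjusted p = 0.180).

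Lsm2 to Lsm8 form the ring on U6, and with Lsm1 in place of Lsm8 they act in mRNA decay in the cytoplasm. None of the 12 *Lsm* genes was called by limma with adjusted or unadjusted p, nor by edgeR, which tested 10 of them. *Lsm3* had 186 and 201 FPKM in control against 134 and 93.2 in *Eef1g*-cKO, and was the 1 *Lsm* gene with an unadjusted p under 0.05 (limma, log2 change -0.78, adjusted p = 0.0984). *Lsm4*, with the highest control level of the family per length, had 221 and 278 FPKM in control against 199 and 198 in *Eef1g*-cKO (log2 change -0.32, limma, adjusted p = 0.346), a direction that turned to 0.17 with the GC trend removed. *Lsm2* had 79.2 and 114 FPKM in control against 134 and 136 in *Eef1g*-cKO. *Lsm1*, the decay-specific subunit, had 6.84 and 14.1 FPKM in control against 20.8 and 15.6 in *Eef1g*-cKO (log2 change 0.81 ± 0.42, limma, adjusted p = 0.251). *Lsm6* and *Lsm7* had at most 3 reads in each *Eef1g*-cKO library, with 23 and 36 and with 4 and 11 reads in control. *Lsm10*, of the U7 snRNP that processes histone mRNA, had 28 and 14 reads in control against 0 and 4 in *Eef1g*-cKO, which did not pass (limma, adjusted p = 0.297).

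Together the 77 genes had 21484 and 25720 reads per 1000000 in control against 19406 and 19364 in *Eef1g*-cKO. The mean went from 23602 ± 2995 to 19385 ± 29.5 (SD, n = 2), a ratio of 0.821, and both *Eef1g*-cKO libraries were below both controls. Such sums, also those by family and role, weigh genes by their reads and do not describe a typical member. *Hnrnpa2b1* alone, which was not called by limma, had 6711 and 5185 reads in control against 438 and 813 in *Eef1g*-cKO. The exact two-sided permutation test over the 4 libraries gave p = 0.333, the smallest it can give with 2 against 2. By family the ratio was 0.639 for *Sf3a* and *Sf3b*, 0.760 for *Hnrnp*, 0.846 for *Prpf*, 0.916 for *Lsm*, 0.952 for *Snrp*, 1.03 for *U2af* and 1.07 for *Srsf*. The order of the members by FPKM was close between replicates, with a Spearman correlation across the 77 genes, which are not independent, of 0.981 in control and 0.970 in *Eef1g*-cKO. *Hnrnp* genes took 47.2% and 48.8% of the members' reads in control against 43.5% and 45.5% in *Eef1g*-cKO, and *Srsf* genes 13.7% and 13.2% against 18.3% and 16.7%.

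**Figure D3:**
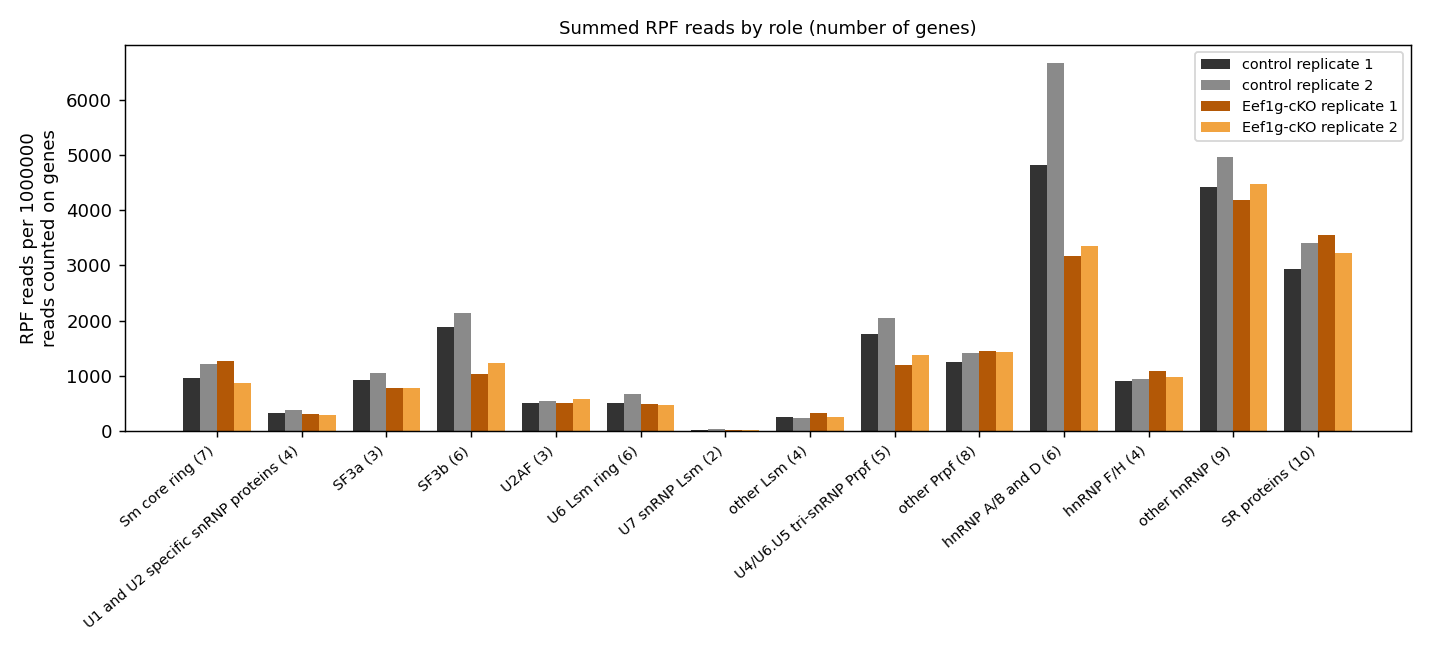
RPF reads per 1000000 reads counted on genes, summed over the genes of each role (number of genes in brackets), with 1 bar per library. The hnRNP A/B and D, SF3b and tri-snRNP Prpf bars are lower in both Eef1g-cKO libraries than in both controls (3171 and 3358 against 4813 and 6660 for hnRNP A/B and D), while the Sm ring and SR protein bars overlap.

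The rest of the splicing machinery was read from a list of 145 genes outside the symbol rule, of which 136 were in the table and 135 were tested. Of these, 2 rose (1.48%, against 2.87% of all genes) and 6 fell (4.44%, against 4.97%) by limma's adjusted p. Both *Eef1g*-cKO libraries were above control for 33 (24.4%, against 24.6%) and below for 55 (40.7%, against 37.7%), and the median log2 change was -0.18, against -0.23. These shares were near those of all genes. The increases were *Wbp11*, a splicing activator (1.11, adjusted p = 0.0431 with limma), and *Strap*, of the SMN complex that loads Sm rings (1.07, adjusted p = 0.0491). The decreases were *Ppil1*, a peptidyl-prolyl isomerase of the active spliceosome (-2.67), the RNA-binding protein *Khdrbs3* (-2.24), the second-step helicase *Dhx38* (-1.56), *Rnps1* of the exon junction complex (-1.55), the cold-inducible *Cirbp* (-1.06) and the splicing repressor *Ptbp1* (-1.04). *Rnps1* had 77.8% of its windows at 2 or more places. The 39 snRNP proteins outside the rule held 1 of these calls. Of the 39, 22 were lower in both *Eef1g*-cKO libraries (56.4%, against 37.7% of all genes), with a median log2 change of -0.46, against -0.23.

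Repeated windows, which the symbol rule did not use, were unevenly spread over the members. For 22 of 77 members (28.6%), 50% or more of the windows lay at 2 or more places, against 578 (5.71%) of the 10116 tested genes with a coding sequence. The median over members was 4.56% of windows, against 1.71% over those genes. Percentages this small can come from windows across exon junctions that also match at the same gene, so they need not mean copies elsewhere. By family, 7 of 11 *Snrp* genes were in this group and none of the 13 *Prpf* genes. *Lsm7*, like *Snrpg*, had 100% of its windows at 2 or more places, and *Hnrnpf* had 98.0%. All 6 members with no more than 3 reads in either *Eef1g*-cKO library, *Hnrnpa1*, *Lsm6*, *Lsm7*, *Sf3b4*, *Snrpg* and *U2af1*, were in this group. The 22 genes had a median control level of 29.0 FPKM, against 91.6 for the other 55. Adjusted p with limma called 0 of the 22 increased and 2 decreased, and 2 of the 55 increased and 5 decreased. The median log2 change was -0.54 in the 22 and -0.35 in the 55. Across the 77 genes the percent of such windows and the log2 change had r = -0.39 and rho = -0.25 as a description, since the genes share libraries and depth. Across the 10116 tested genes r was -0.04. The part of repeated windows in the changes was not tested.

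**Figure D4:**
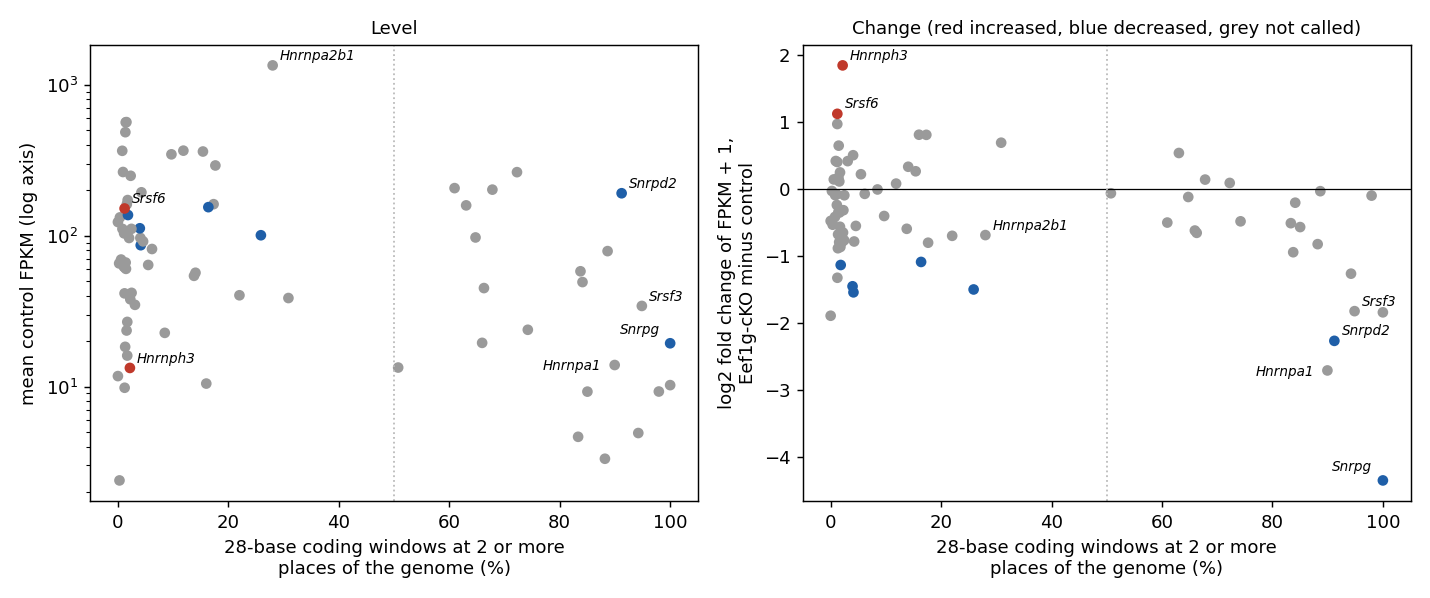
Percent of each gene's 28-base coding windows found at 2 or more places of the genome against its mean control FPKM (left, log axis) and its log2 fold change of FPKM + 1, Eef1g-cKO minus control (right), 1 point per gene, with 50% as a dotted line. The increased genes Srsf6 and Hnrnph3 lie near 0%, Hnrnpa1, Snrpd2, Srsf3 and Snrpg between 90.0% and 100%, and the other 5 decreased genes left of the 50% line.

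The median share of codons ending in G or C was 54.2% in the members and 60.1% over the tested genes with a coding sequence. Across genes this share and the log2 change had r = -0.15 and rho = -0.12 in the 77 members, and -0.28 and -0.30 in 10116 tested genes, again as a description. Among the called genes, *Hnrnph3* (36.5%) and *Srsf7* (32.1%) had low and *Snrpd2* (82.1%) high shares. *Srsf2*, with 82.7% of its codons ending in G or C, went from -0.42 to 0.18 when the trend on this share was removed, and *Hnrnpa2b1*, with 32.1%, went from -0.69 to -1.36.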

How the data were processed

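RPFs of 26 to 34 nt were sequenced from 2 control and 2 *Eef1g*-cKO libraries. The authors deposited one table, with FPKM (per kilobase of gene length and per 1000000 reads counted on genes) and a normalized count signal, in which the authors divided each count by a size factor per library. All of its values were whole multiples of 1 step per library (100%, within 0.0001), which gave back the reads. The table also holds the mean signal and the authors' own comparison, as log2 fold changes with their errors, statistics and p-values, which were not used. The submitters' processing notes name cutadapt, Bowtie, STAR and the builds mm10 and hg38. The counter, annotation and treatment of reads with several matches are not given in the sources used here.

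limma 3.58.1 (R 4.3.3; trended prior variance) was run on log2(FPKM + 1) over the 10475 genes that averaged 1 FPKM or more, with Benjamini-Hochberg adjustment over all of them. Calls needed p under 0.05, adjusted or not, and an absolute log2 change above 1. edgeR 4.0.16 (quasi-likelihood) and DESeq2 1.42.0 on the recovered reads, other pseudocounts, filters, scalings and depths, a replicate block, left-out libraries and removal of the GC trend were alternatives. One read on a 1000-base gene was worth 0.403 and 0.722 FPKM in control against 4.47 and 2.45 in *Eef1g*-cKO. A count of 0 allows up to 3 reads at 95% confidence, covering counting error only. Counts of the members in the control pair differed beyond sampling noise (chi-square per degree of freedom 7.42), as did those of the *Eef1g*-cKO pair (1.67).

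Coding sequences were the longest of each gene in GENCODE M21 (77 of 77 members), and all 77 symbols matched RefSeq GRCm38.p6, which may not be the authors' annotation. The genes, the list of other splicing genes and the markers were chosen with earlier results of these data known. Named by rule were called members, the highest, most increased and most decreased of each family (the last 2 averaging 5 FPKM or more, with genotypes that did not overlap), those with no more than 3 reads in either *Eef1g*-cKO library, and called genes of the list. Markers of pachytene cells (3 of 6 in the table), spermatids (3 of 6), preleptotene cells (2 of 3), Leydig cells (3 of 5), peritubular cells (3 of 3), macrophages (0 of 4) and blood (0 of 5) were also read. Their summed FPKM were 142 to 180 in control and 238 to 286 in *Eef1g*-cKO for pachytene cells, 7.38 to 55.3 and 0 to 15.1 for spermatids, 282 to 301 and 115 to 152 for preleptotene cells, 3.10 to 5.82 and 1.22 to 2.23 for Leydig cells, and 39.4 to 43.8 and 20.8 to 27.7 for peritubular cells.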

Additional observations from a re-analysis of the deposited data

How the results depend on the processing

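All 9 called members kept their direction under every alternative that gave them a value (17 each, 15 for *Snrpg*). They were picked by their calls in these same libraries, with genotypes that did not overlap. Their direction was thus largely fixed in advance and lends the calls no support. The main counts were 2 increased and 7 decreased members with limma and adjusted p, and 2 and 10 with unadjusted p. With a pseudocount of 0.1, limma called 0 and 1 by adjusted p (0% and 1.30%), against 29 and 47 of all genes (0.277% and 0.449%). Unadjusted it called 2 and 9 (2.60% and 11.7%, against 7.14% and 14.3% of all genes). With no filter it called 1 and 6 by adjusted p (1.30% and 7.79%, against 1.77% and 3.22%). Centring libraries on their medians gave 4 and 4, unadjusted 4 increased, and a median of -0.20. A prior variance without a trend and thinning to the smallest library each gave 0 and 0. Neither called any gene of the table by adjusted p. Unadjusted, the first gave 2 and 10 (2.60% and 13.0%, against 7.57% and 17.3% of all genes). The second gave 4 and 6 (5.19% and 7.79%, against 6.94% and 12.0%). edgeR called 3 and 8 and DESeq2 3 and 7 by adjusted p. Removing the GC trend, an alternative added after seeing the data, gave 0 and 12 (0% and 15.6%, against 3.02% and 5.42% of all genes). Unadjusted it gave 1 and 16 (1.30% and 20.8%, against 6.76% and 16.5%). The 55 members with under 50% repeated windows, also added after seeing the data, gave 2 and 5, and 2 and 6 unadjusted. The main comparison called 2.87% and 4.97% of all genes, and 7.32% and 16.3% unadjusted. Leaving out each library gave 0 to 2 increased and 0 to 11 decreased members by adjusted p (0% to 2.60% and 0% to 14.3%, against 0% to 5.34% and 0% to 13.9% of all genes) and 1 to 3 and 5 to 14 unadjusted, a median of -0.54 to -0.23 and a ratio of summed reads of 0.754 to 0.902. Without the small nuclear RNA gene *Rnu11* in the totals that ratio was 0.788. Signs turned for *Lsm4* (0.17) and *Srsf2* (0.18) with the GC trend removed, and over the left-out libraries for *Lsm6* (log2 changes of -1.11 to 0.083, above 0 without control replicate 2), *Snrpd3* (-0.12 to 0.47, below 0 without *Eef1g*-cKO replicate 1) and *U2af1* (-2.56 to 0.033, above 0 without *Eef1g*-cKO replicate 1), none of which was called in the main comparison. The cause was not tested for these shifts. At this depth, 6 members had no more than 3 reads in either *Eef1g*-cKO library.

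With the replicate number as a block, limma called 2 increased and 9 decreased members by adjusted p, adding *Srsf3* and *Hnrnpa1*. These were 2.60% and 11.7% of the members, against 4.05% and 7.85% of all genes. Unadjusted it called 2 and 12 (2.60% and 15.6%, against 7.37% and 17.4%). The deviations of same-numbered libraries had r = -0.01 over 10475 genes, and with 2 pairs the numbers were not taken to pair the libraries.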
